A study of Mus musculus with 44 samples.

Results

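The 7 genes described here are those of the cartilage matrix and its regulator that the arrays name as Cnmd, Comp, Matn2, Matn4, Acan, Hapln1 and Sox9. The 7 genes were picked with earlier results of these data known. All 15 probe sets (the short oligonucleotide sets that report a transcript) with their symbols were then taken, of 36701 on the 3 array types A, B and C. The RNA came from primary osteoblast cultures of the calvaria, the skull cap, which the labels describe as from new born mice of 7 days. Strain, sex and the number of animals pooled are not given in the sources used here.

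Each culture carried a transgene in which a fragment of the type I collagen promoter drives green fluorescent protein (GFP), and sorting by fluorescence gave GFP-positive and GFP-negative cells beside RNA of the unsorted culture. Day 7 cultures carried pOBCol3.6GFP, had grown in DMEM with FCS and had no additions (Exp99, Exp101 and Exp103). Day 17 cultures carried pOBCol2.3GFP and had received Asc acid (ascorbic acid) and bGP (beta-glycerophosphate) from day 7 on (Exp100, Exp105 and Exp106). Preosteoblasts and all later stages are known to use the longer promoter fragment, and only differentiated osteoblasts the shorter, so GFP sorts a different population at each day. Day, transgene and additions cannot be told apart. With 3 experiments a day and 3 kinds of RNA each there were 18 RNA samples in 6 groups of 3. All were hybridised to array A, and the 12 from sorted cells to B and C too. Only the experiment names set the replicates apart, and no label ties them to separate cultures or animals. The p-values therefore reflect the spread among these particular samples, which may be technical. In bulk RNA, fewer cells of a type and less RNA per cell cannot be told apart.

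Cartilage is built by chondrocytes around a fibril of type II collagen and large aggregates of aggrecan (Acan), the proteoglycan that holds water, on hyaluronan chains, locked by the link protein Hapln1. Matrilins (Matn2 and Matn4 here) are adaptor proteins that connect fibrils and proteoglycans, and Comp, a thrombospondin, binds collagen in cartilage, tendon and ligament. Chondromodulin (Cnmd) is a membrane protein of cartilage that restrains blood vessel growth. Sox9 is the transcription factor that sets the chondrocyte fate and drives Acan, Hapln1, matrilin and collagen genes in cartilage. Most bone of the skull vault forms directly in membrane, without a cartilage model, and cartilage lies beside it at the skull base and in some sutures. Matn2 and Comp are also made outside cartilage, in tendon, skin and other connective tissue.

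The values are intensities on a linear scale, normalised between arrays of a type, and the medians of the normalised arrays were 565 on A, 842 on B and 642 on C. Levels given for array A were normalised over its 18 arrays, and those for B and C over the 12 sorted samples. Testing required a reading over the median of the array on 3 or more arrays, which 7 of the 15 probe sets reached: Matn4 96835_at and Matn2 98475_at on A, Sox9 163058_at and 163458_at on B, and Sox9 137617_f_at, Comp 165807_at and Cnmd 165981_i_at on C. A filter passed through the group where a gene is high favours genes that differ, so counts over these 7 are no support for a difference. Differences are on the log2 scale (value plus 32) with standard errors, tested with limma and called at a Benjamini-Hochberg adjusted p under 0.05 over all probe sets tested. The arrays of Exp106 stood apart, with a mean correlation with the other experiments' arrays of 0.84, 0.772 and 0.77 on A, B and C, against 0.943, 0.9 and 0.813 among those others.

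Matn4 was the member with the clearest pattern. At day 7 its probe set 96835_at read 1497 in the GFP-negative cells of Exp99, 1922 in Exp101 and 2361 in Exp103, and 955, 1686 and 1094 in the GFP-positive cells of the same experiments. In Exp100, Exp105 and Exp106, at day 17, the GFP-negative cells read 27564, 17650 and 9938, and the GFP-positive cells 2893, 2619.7 and 2302.5. Both fractions of day 7 overlapped, whereas at day 17 each GFP-negative sample lay above every GFP-positive one. All folds are ratios of value plus 32, which lowers those of dim readings. Within an experiment GFP-negative exceeded GFP-positive cells by 1.55-fold, 1.14-fold and 2.12-fold at day 7, and by 9.43-fold, 6.67-fold and 4.27-fold at day 17.

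At day 17 the GFP-positive minus GFP-negative difference of Matn4 was -2.72 ± 0.35 (n = 3 and 3, limma adjusted p = 0.00222), a level 6.57-fold lower, in 3 of 3 experiments. It was the 1 member called of 7 tested in this comparison, in which 1.48% of the 22099 probe sets tested were called (327 probe sets). With experiment as a block the adjusted p was 0.000623, and over 24 other settings it ran from 2.97e-05 to 0.0639, the call being lost where only the day 17 groups entered the fit. At day 7 the difference was -0.64 ± 0.35 (adjusted p = 1), and 0% of all probe sets were called, with 329 at an unadjusted p under 0.05. None of the 7 members was called at day 7.

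The difference between the 2 effects was itself -2.08 ± 0.50 for Matn4 (limma adjusted p = 0.181), in a comparison that called 0.253% of all probe sets and 0 of the 7 members (1353 probe sets had an unadjusted p under 0.05). The block for experiment brought a call for Matn4 at an adjusted p of 0.0282, together with Matn2, where 1.14% of all probe sets were called. Without Exp106 it was also called (-2.38, adjusted p = 0.0159), where 1.55% of all were. Whether the contrast between fractions grew from day 7 to day 17 thus depended on the fit.

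Across days, Matn4 rose in the GFP-negative cells by 3.17 ± 0.35 (8.98-fold, limma adjusted p = 0.00318), the 1 member called of 7 where 0.557% of all probe sets were called. In unsorted cultures it read 1827, 3102 and 2330 at day 7 (Exp99, Exp101, Exp103) and 28481, 13997 and 10624 at day 17 (Exp100, Exp105, Exp106). That rise was 2.76 ± 0.38 (6.77-fold, adjusted p = 0.000841), 1 of the 2 members tested on array A, where 5.71% of 7455 probe sets were called. Both rises were called in all alternatives run, 22 and 27 of them. In the GFP-positive cells the difference between days was 1.09 ± 0.35 (adjusted p = 0.107), although the 3 values of day 17 lay above the 3 of day 7. In that comparison 5.45% of all probe sets and 0 of the 7 members were called, and without Exp106 Matn4 was called at 1.17 (adjusted p = 0.0194) beside 13.1% of all.

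Ordered by level, Matn4 was highest in day 17 GFP-negative cells (geometric mean 16910) and day 17 unsorted cultures (16180), which overlapped. These were followed without overlap by day 17 GFP-positive cells (2594), then day 7 unsorted (2364), day 7 GFP-negative (1894) and day 7 GFP-positive cells (1209), each overlapping its neighbour. On the log2 scale the unsorted cultures of day 17 exceeded the equally weighted mean of their sorted fractions, a geometric mean of 6638, by 1.28 ± 0.33 (limma adjusted p = 0.0629). That was not called, while 1.6% of all probe sets were (119 of 7455). It was called with experiment as a block (adjusted p = 0.00309, with 12.3% of all called) and without Exp106 (1.35, adjusted p = 0.0178, 9.37% of all). At day 7 the same comparison gave 0.63 ± 0.33 (adjusted p = 1), with 0% of all called and 59 at an unadjusted p under 0.05. A geometric mean of fractions that differ lies below the level of their mixture in equal parts, and the share of each fraction in a culture is not given. The excess over that mean therefore does not by itself show a level beyond that of the mixed fractions. Within experiments of day 17, unsorted cultures read above both fractions in Exp100 (28481 against 27564 and 2893) and Exp106 (10624 against 9938 and 2302.5). In Exp105 the unsorted culture lay between them (13997 against 17650 and 2619.7). At day 7 it lay above both in Exp99 and Exp101 and between them in Exp103. These orders within experiments were not tested.

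**Figure D1:**
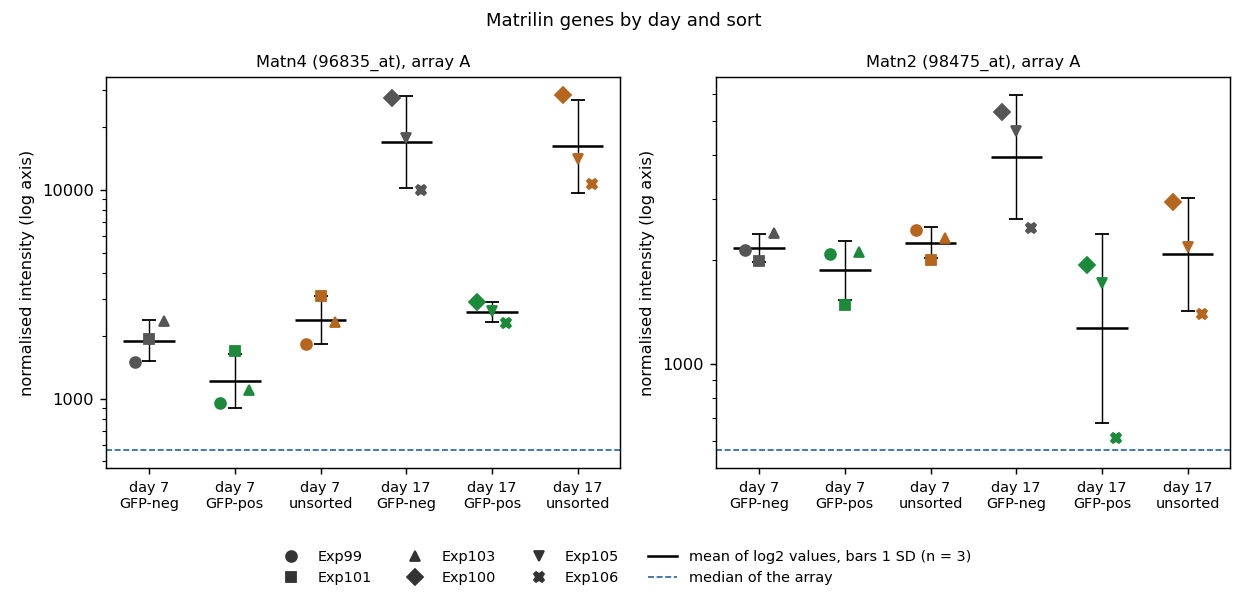
Normalised intensity on a log axis of the Matn4 and Matn2 probe sets of array A in each of the 18 RNA samples, by day and sort, with markers for experiments, bars for the mean and 1 SD of log2 values (n = 3) and a dashed line at the array median. Matn4 reads 9938 or more in all 6 GFP-negative and unsorted samples of day 17 and 3102 or less in the other 12, and Matn2 has its highest group mean (3952) in the GFP-negative cells of day 17.

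The other Matn4 probe set, 164328_f_at on array B, was not tested since it passed the median on 2 of 12 arrays. Its suffix marks probes that may also match similar sequences. At day 17 it read 2659, 647 and 1461 in the GFP-negative cells of Exp100, Exp105 and Exp106 and 322, 278 and 796 in the GFP-positive cells, so GFP-negative was higher in 3 of 3 experiments. At day 7 its 6 values lay between 238 and 323. The array B probe set thus had the same direction as 96835_at at day 17, with ranges of the groups that overlapped.

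The RefSeq table (GRCm38.p6) holds a start site for 4 of the 7 genes, 5 windows in all, each of 250 bases before to 50 after the start. They are shown for Matn4 and Cnmd, the members with the largest differences between fractions, and for Hapln1, the only member window with SOX and RUNX letters. Capitals mark matches, on either strand, to 5 short motifs: the SOX core ACAAT, the SOX and TCF core ACAAAG, the RUNX core TGTGGT, the GC box GGGCGG and the TATA box TATAAA.
Matn4, upstream start, chr2:164405111-164405410, minus strand: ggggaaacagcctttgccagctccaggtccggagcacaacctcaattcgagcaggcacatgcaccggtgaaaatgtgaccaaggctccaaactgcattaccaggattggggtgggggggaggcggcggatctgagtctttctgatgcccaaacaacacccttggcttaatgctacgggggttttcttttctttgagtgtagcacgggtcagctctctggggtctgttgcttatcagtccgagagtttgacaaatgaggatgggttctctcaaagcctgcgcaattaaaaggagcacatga
Matn4, downstream start, chr2:164404769-164405068, minus strand: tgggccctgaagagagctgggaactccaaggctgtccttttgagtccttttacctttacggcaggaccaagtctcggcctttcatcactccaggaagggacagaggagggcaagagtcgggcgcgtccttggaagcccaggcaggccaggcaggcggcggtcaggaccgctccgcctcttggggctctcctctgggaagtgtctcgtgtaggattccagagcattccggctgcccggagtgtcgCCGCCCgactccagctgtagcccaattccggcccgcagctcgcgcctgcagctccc
Cnmd, chr14:79662134-79662433, minus strand: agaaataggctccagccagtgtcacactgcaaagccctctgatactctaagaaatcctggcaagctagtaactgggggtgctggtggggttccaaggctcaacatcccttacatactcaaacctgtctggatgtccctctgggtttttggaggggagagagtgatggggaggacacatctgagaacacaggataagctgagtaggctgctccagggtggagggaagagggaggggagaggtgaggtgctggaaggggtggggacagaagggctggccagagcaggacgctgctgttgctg
Hapln1, chr13:89540386-89540685, plus strand: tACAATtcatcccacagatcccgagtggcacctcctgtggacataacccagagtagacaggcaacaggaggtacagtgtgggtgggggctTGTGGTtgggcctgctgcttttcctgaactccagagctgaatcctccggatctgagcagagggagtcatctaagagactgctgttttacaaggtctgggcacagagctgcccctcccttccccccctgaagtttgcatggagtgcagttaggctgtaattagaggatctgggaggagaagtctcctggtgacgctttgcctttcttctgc
The upstream Matn4 window and the Cnmd window hold 0 matches, and the downstream Matn4 window holds 1 GC box, 6 bases before the start. Hapln1 holds the SOX core 249 bases and the RUNX core 160 bases before its start, and the Acan window (not shown) 3 GC boxes. Of 32851 promoter windows of this length in the table, 31.0% hold ACAAT, 18.7% ACAAAG, 16.8% TGTGGT, 35.7% GGGCGG and 13.6% TATAAA. GC content is 52.7% and 64.0% in the Matn4 windows and 56.0% in that of Cnmd, against a median of 52.7% over all windows. These are letters in a window and say nothing of binding.

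Matn2, the broadly expressed matrilin, differed between fractions at day 17 in the same direction. Its probe set 98475_at read 5332, 4684 and 2469 in the GFP-negative cells of Exp100, Exp105 and Exp106, against 1931, 1712 and 614 in the GFP-positive cells. Each GFP-negative sample lay above every GFP-positive one. At day 7 the values were 2135, 1986 and 2387 (GFP-negative; Exp99, Exp101, Exp103) and 2078, 1486 and 2102 (GFP-positive), which overlap. The GFP-positive cells were lower in 6 of 6 experiments, by 1.03-fold to 1.33-fold at day 7 and by 2.73-fold, 2.70-fold and 3.87-fold at day 17.

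The difference of Matn2 at day 17 was -1.62 ± 0.41 (limma adjusted p = 0.0877), which was not called. It was called with experiment as a block (adjusted p = 0.00114, 2 of the 7 members beside 5.03% of all probe sets). Without Exp106 it was also called (-1.46, adjusted p = 0.00295, 4.97% of all), as it was without the GFP-negative sample of Exp106 (-1.96, adjusted p = 0.0407) and on the deposited scale (-1.75, adjusted p = 0.0349). At day 7 the difference was -0.21 ± 0.41 (adjusted p = 1), and the difference of the effects was -1.41 ± 0.58 (adjusted p = 0.744, and 0.0282 with the block). With experiment as a random block its adjusted p was 0.0523, and without Exp106 the difference was -1.24, called just under the threshold (adjusted p = 0.05 after rounding).

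Between days, the GFP-negative cells differed by 0.87 ± 0.41 for Matn2 (adjusted p = 0.457) with no overlap of the 3 and 3 values, and without Exp106 by 1.21 (adjusted p = 0.00836), a call among 2.86% of all. GFP-positive cells differed by -0.54 ± 0.41 (adjusted p = 0.51). Unsorted cultures read 2434, 1999 and 2316 at day 7 and 2927, 2178 and 1397 at day 17, a difference of -0.11 ± 0.39 (adjusted p = 0.874). At day 17 they lay between the fractions in each experiment. The unsorted minus sorted difference was 0.16 ± 0.33 at day 7 and -0.11 ± 0.33 at day 17 (adjusted p = 1 and 0.945). In order of level the day 17 GFP-negative cells (3952) lay above day 7 unsorted cultures (2242) without overlap. Then came day 7 GFP-negative cells (2163), day 17 unsorted cultures (2075), day 7 GFP-positive (1866) and day 17 GFP-positive cells (1271), each overlapping its neighbour. The highest day 17 unsorted value, 2927, lay inside the range of the day 17 GFP-negative cells. The other Matn2 probe set, 161776_at, lay above the array median on 1 of 18 arrays (73.4 to 851), and GFP-positive was lower in 3 of 6 experiments.

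Cnmd, the chondromodulin gene, read 2223 in the GFP-negative cells of Exp99, 14849 in Exp101 and 3008 in Exp103 at day 7, and 635, 232 and 917 in the GFP-positive cells. At day 17 the GFP-negative cells of Exp100, Exp105 and Exp106 read 3339.9, 1454 and 1369, and the GFP-positive cells 376, 1184 and 108. GFP-negative lay above GFP-positive cells without overlap at both days, although by little at day 17. The ratio within an experiment was 3.38-fold, 56.3-fold and 3.20-fold at day 7 and 8.27-fold, 1.22-fold and 9.98-fold at day 17, so Exp101 and Exp105 were the extremes. In the GFP-positive cells 4 of the 6 readings lay below the array median, and the size of the larger folds is uncertain.

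No Cnmd difference between fractions was called at day 7 or day 17, with all samples or in the 24 alternatives run for each. At day 7 it was -3.08 ± 0.81 (8.48-fold lower in GFP-positive cells, unadjusted p = 0.00161, limma adjusted p = 1), and 4.75-fold without the GFP-negative sample of Exp101. At day 17 it was -2.22 ± 0.81 (4.65-fold, adjusted p = 0.263, or 0.166 with the block). That ran from 2.72-fold without the GFP-positive sample of Exp106 to 8-fold without that of Exp105. The mean of both days, a comparison added after the values had been seen, was -2.65 ± 0.57 (adjusted p = 0.0699, or 0.0491 with the block). The days differed by -1.29 ± 0.81 in GFP-negative and -0.42 ± 0.81 in GFP-positive cells (adjusted p = 0.591 and 0.813). Without Exp106 the latter turned to 0.35 (adjusted p = 0.832). The effects differed by 0.87 ± 1.15 (adjusted p = 1). By level the order was day 7 GFP-negative (4641), day 17 GFP-negative (1883), day 7 GFP-positive (519) and day 17 GFP-positive (379), with a gap only between the second and the third. The suffix of probe set 165981_i_at marks an incomplete set, with fewer probes than usual.

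**Figure D2:**
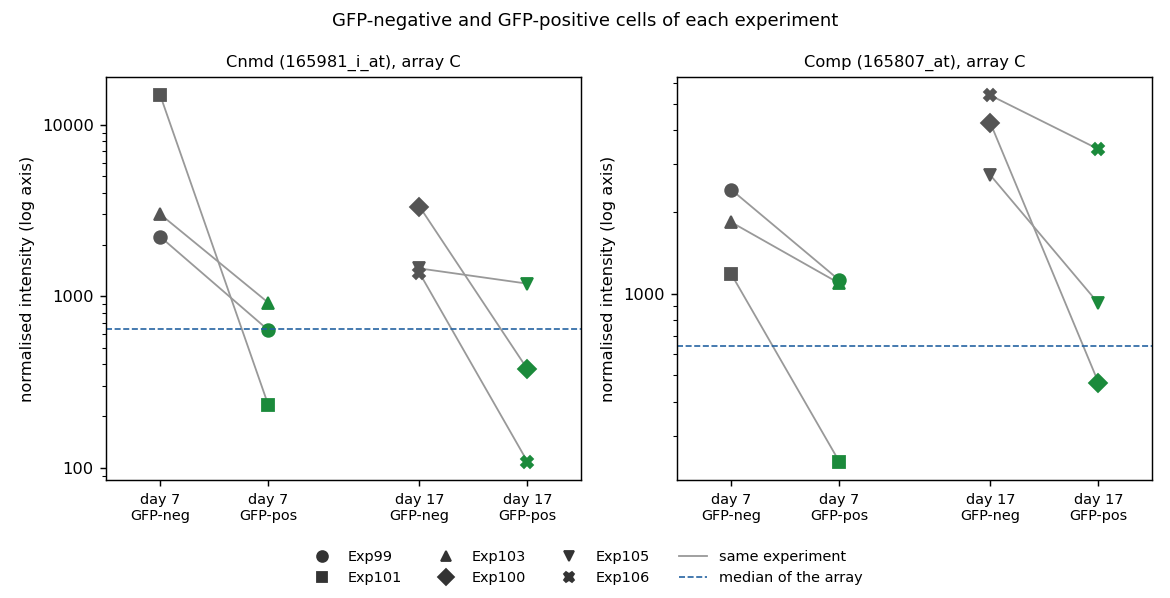
Normalised intensity on a log axis of the Cnmd and Comp probe sets of array C in the sorted fractions, 1 line per experiment from GFP-negative (grey) to GFP-positive cells (green), with the array median dashed. All 6 lines fall in each panel, steepest for Cnmd in Exp101 (14849 to 232) and flattest for Cnmd in Exp105 (1454 to 1184).

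Comp, which binds collagen fibrils, showed the same order in every experiment. At day 7 it read 2419 in the GFP-negative cells of Exp99, 1181 in Exp101 and 1836 in Exp103, and 1122, 241 and 1093 in the GFP-positive cells, with no overlap. At day 17 the GFP-negative cells of Exp100, Exp105 and Exp106 read 4254, 2734 and 5386, and the GFP-positive cells 471, 921 and 3412, where the GFP-positive cells of Exp106 fell inside the range of the GFP-negative group. Within experiments GFP-negative cells were higher by 2.12-fold, 4.45-fold and 1.66-fold at day 7 and by 8.53-fold, 2.90-fold and 1.57-fold at day 17.

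The differences of Comp were -1.32 ± 0.67 at day 7 and -1.76 ± 0.67 at day 17 (limma adjusted p = 1 and 0.304), neither called. At day 7 it was 1.55-fold without the GFP-positive sample of Exp101, against 2.50-fold with it. Without the GFP-positive sample of Exp106 the day 17 difference was -2.53 (5.78-fold against 3.39-fold, adjusted p = 0.0381), a call in a fit that called 779 of 21575 probe sets. With all of Exp106 left out and experiment as a block it was also called (-2.31, adjusted p = 0.0406, beside 8.96% of all probe sets), and with the block alone it was not (adjusted p = 0.0708). Between days it differed by 1.18 ± 0.67 in GFP-negative cells, where the values did not overlap, and by 0.74 ± 0.67 in GFP-positive cells (adjusted p = 0.546 and 0.585). The latter was -0.03 without Exp106 (adjusted p = 0.984). The difference of the effects was -0.44 ± 0.95 (adjusted p = 1). Day 17 GFP-negative cells had the highest mean (3972), without overlap with day 7 GFP-negative (1739), which overlapped day 17 GFP-positive (1150), and that day 7 GFP-positive cells (675).

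Over both days together, a comparison added after the values had been seen, Matn4 was called at -1.68 ± 0.25 (limma adjusted p = 0.0221), 1 of 7 members beside 0.344% of all probe sets. With experiment as a block Matn4, Matn2 and Cnmd were called (adjusted p = 0.00383, 0.00906 and 0.0491), 3 of 7 beside 1.46% of all, and Comp was not (0.0616). With the block and without Exp106 the 3 called were Matn4, Matn2 and Comp (adjusted p = 0.000302, 0.0021 and 0.0265), beside 4.96% of all, and Cnmd was not (0.0695). The Matn4 call without the block was lost in 9 of 24 alternatives, each of which left out 1 sample (adjusted p of up to 0.0737). These comparisons share samples with those of each day.

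**Figure D3:**
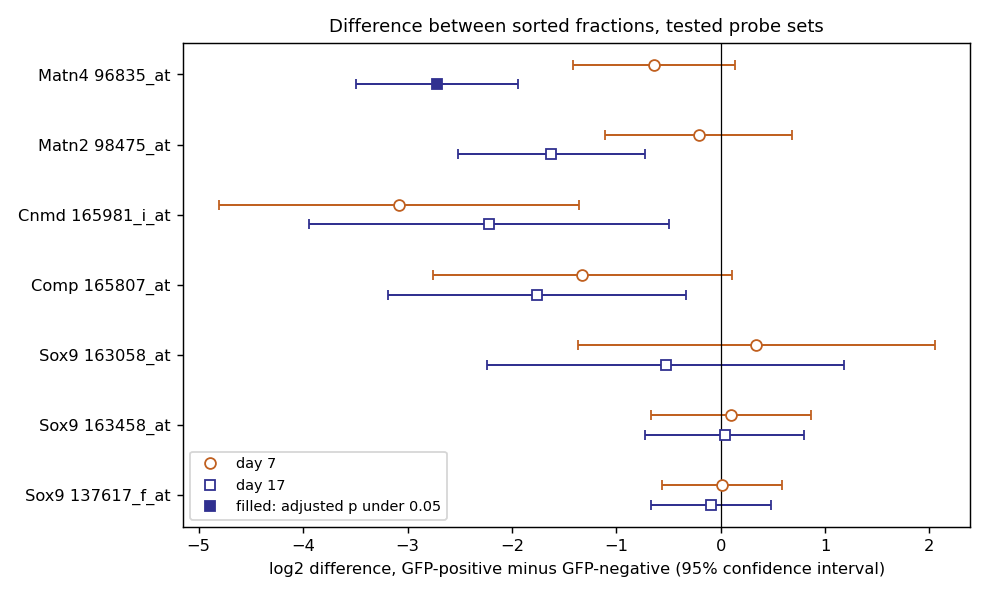
Log2 difference of GFP-positive minus GFP-negative cells with its 95% confidence interval for the 7 tested probe sets at day 7 (circles) and day 17 (squares), filled where the adjusted p was under 0.05. The 4 matrix genes tested lie left of 0 at both days. Of all 11680 genes tested, 5729 had a difference below 0 at day 7 and 5940 at day 17. Acan and Hapln1 were not tested and are not drawn. Matn4 at day 17 is the filled point (-2.72), and the 3 Sox9 probe sets lie between -0.53 and 0.34.

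Sox9 is the regulator among the members, and with all samples in the fit no difference was called for any of its 3 tested probe sets. Probe set 137617_f_at read 6228, 9605 and 8269 in the GFP-negative cells of Exp99, Exp101 and Exp103 and 7932, 9022 and 7107 in the GFP-positive cells. At day 17 it read 11938, 8045 and 11979 in the GFP-negative cells of Exp100, Exp105 and Exp106, and 9605, 9649 and 10247 in the GFP-positive cells. The fractions overlapped at both days, with differences of 0.01 ± 0.27 (95% interval -0.56 to 0.59) and -0.09 ± 0.27 (-0.67 to 0.48). The day 17 GFP-positive values lay above those of day 7, a difference of 0.30 ± 0.27 (limma adjusted p = 0.582). Its suffix, too, marks probes that may match similar sequences.

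Probe set 163458_at read 3502, 1520.3 and 1636 (GFP-negative) and 2680.4, 1886 and 2119 (GFP-positive) in Exp99, Exp101 and Exp103, and 1665, 1625 and 1872 (GFP-negative) and 1494, 1335 and 2740.1 (GFP-positive) in Exp100, Exp105 and Exp106. The fractions overlapped within each day, and the days within each fraction. The differences between fractions were 0.10 ± 0.35 at day 7 (95% interval -0.67 to 0.86) and 0.04 ± 0.35 at day 17 (-0.73 to 0.80), neither called (limma adjusted p = 1 and 0.992).

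Probe set 163058_at was set apart by Exp106. It read 5609.9 in the GFP-negative and 5066 in the GFP-positive cells of Exp106, against 593 to 1802 in the other 10 samples. GFP-positive cells were higher in 3 of 3 experiments at day 7 (1589 against 1380.3, 1802 against 1025, and 993 against 979) and lower in 3 of 3 at day 17 (628 against 1259.8, 593 against 834, and 5066 against 5609.9). The differences, 0.34 ± 0.79 and -0.53 ± 0.79, and the difference between them, -0.87 ± 1.11, were not called (adjusted p = 1, 0.919 and 1). Without Exp106 the GFP-positive cells of day 17 were lower than those of day 7 by this probe set (-1.17, adjusted p = 0.0333), against -0.18 ± 0.79 with it. The probe sets did not order the samples alike: correlations between the 5 Sox9 probe sets over the 12 sorted samples ran from -0.52 to 0.75, a description of points that share arrays and cultures.

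**Figure D4:**
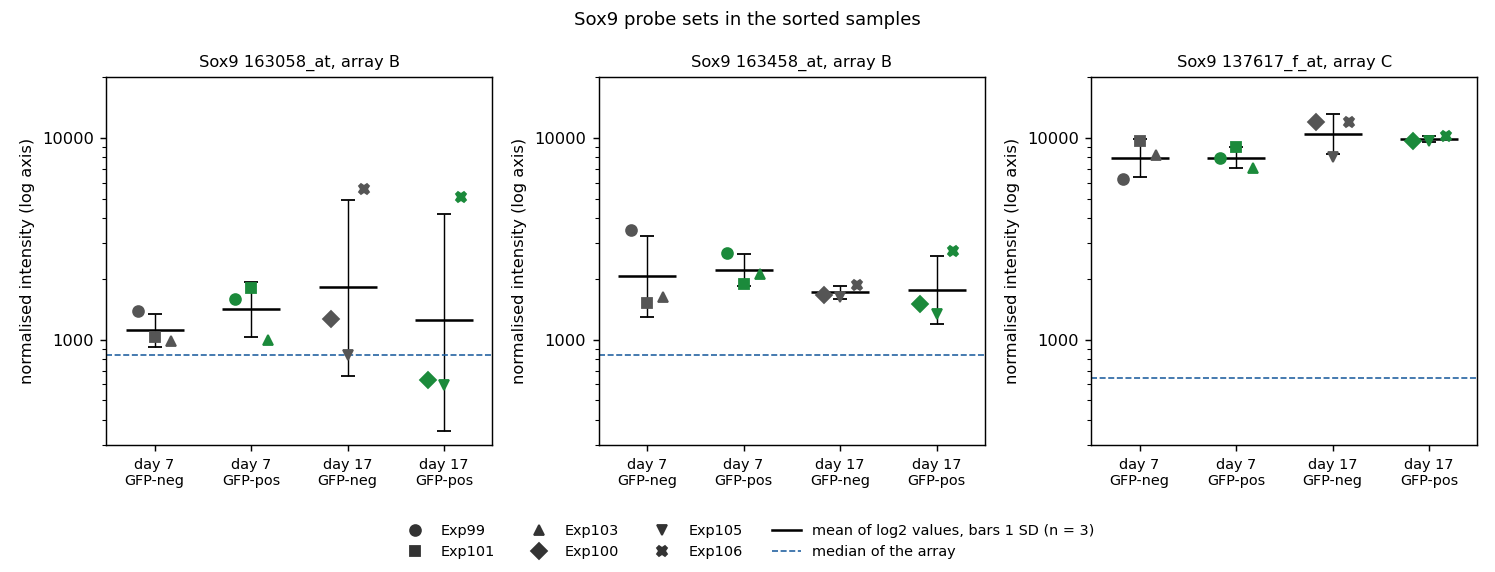
Normalised intensity on a log axis of the 3 tested Sox9 probe sets in the 12 sorted samples, with markers for experiments, bars for the mean and 1 SD of log2 values (n = 3) and the array median dashed. The 2 fractions of each day overlap for 163458_at and for 137617_f_at, and both Exp106 samples (5609.9 and 5066) stand above the rest for 163058_at.

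The 2 remaining Sox9 probe sets, 133346_at and 137618_r_at, lay above the median of array C on 1 of 12 arrays each (93.5 to 1215 and 31.4 to 934) and were not tested. GFP-positive cells were lower in 3 of 6 experiments by either.

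Acan and Hapln1, the proteoglycan and its link protein, gave low readings. The Acan probe set 104205_at read from 27.6 to 545 over 18 arrays and lay above the array median on 0 of them. By group its geometric mean was 303.9 in day 17 unsorted, 240.1 in day 7 GFP-negative, 163 in day 17 GFP-positive, 162 in day 7 GFP-positive, 152 in day 7 unsorted and 94.3 in day 17 GFP-negative samples, each overlapping the next. GFP-positive was lower in 3 of 3 experiments at day 7 and in 1 of 3 at day 17. Hapln1 92506_at read 18.8 to 339.7 on array A (0 of 18 above the median), 169421_at 27.7 to 309.6 (0 of 12) and 169604_at 196 to 2323 (2 of 12) on array C. The highest of these, 2323, was the GFP-negative cells of Exp99. By 92506_at GFP-positive cells exceeded GFP-negative ones in 3 of 3 experiments at day 17 (339.7 against 129, 233 against 71.2, and 212 against 88.8) without overlap, all below the array median. None of the 4 was tested. At this brightness a low reading does not show that a transcript was absent.

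**Figure D5:**
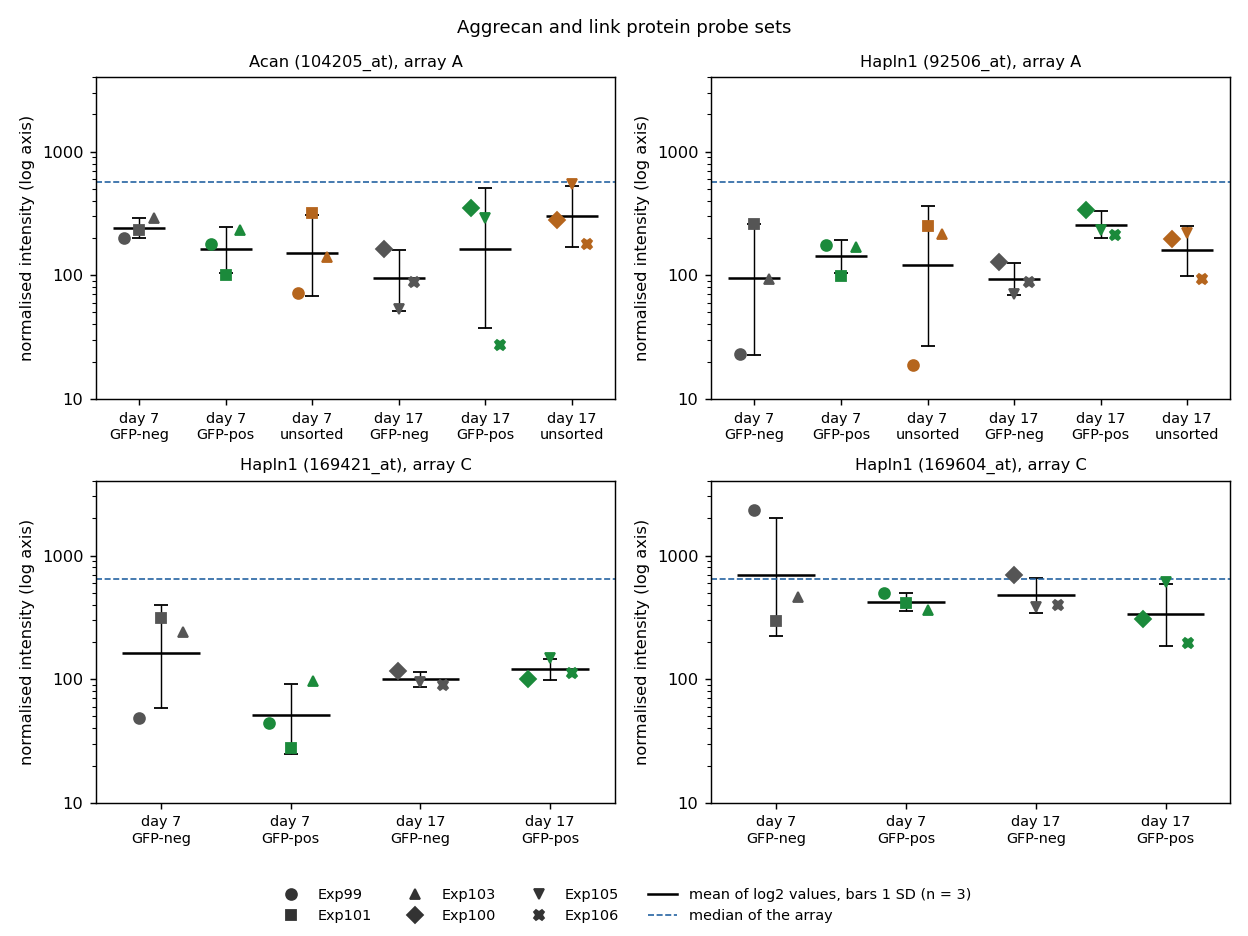
Normalised intensity on a log axis of the Acan probe set and the 3 Hapln1 probe sets, by day and sort, with markers for experiments, bars for the mean and 1 SD of log2 values (n = 3) and the array median dashed. Every Acan point and every point of Hapln1 92506_at and 169421_at lies under the median line, and for 169604_at 2 of 12 points lie above it.

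Other genes of the cartilage matrix list were mixed. Col2a1, the cartilage collagen, read 45.4 to 265 on 18 arrays, Col10a1, of hypertrophic cartilage, 73.1 to 416, Matn1 21.4 to 112 and Epyc 132 to 467, with 0 of 18 arrays above the median for each of them, and Matn3 was above it on 0 arrays by all 3 of its probe sets. Col9a1, by contrast, lay above the median on 18 of 18 arrays by 104483_at (696 to 6696), though on 1 of 12 by 163036_at on array B. Col9a2 98027_at, Col9a3 102070_at and Col11a1 were also above it on 18 of 18 arrays (967 to 2609, 671 to 2444 and 3273 to 14150), and Otor on 12 of 12, whereas the other Col9a3 probe sets were on 0 of 18 and 2 of 12. The osteoblast collagen Col1a1 read 42650 to 149200 (94305_at).

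Among 31 other cartilage matrix genes, 22 were tested and 2 called between fractions at day 17: Col11a2, a fibril collagen of cartilage and osteoblasts, was higher in GFP-positive cells (4.07 ± 0.52, limma adjusted p = 0.00203), and Fmod, a small collagen-binding proteoglycan, was lower (-1.70 ± 0.25, adjusted p = 0.00516). With experiment as a block 1 was higher and 3 lower. Their median difference was -0.14, against -0.01 over all 11680 genes tested, of which 46 were higher and 175 lower (278 and 495 with the block). At day 7, 0 of 22 were called. In GFP-positive cells 5 of the 22 were higher at day 17 than at day 7 and 0 lower, beside 282 higher and 505 lower of all 11680 genes, with Col11a2 at 5.70 ± 0.52 (adjusted p = 0.000155) and Hapln4, a brain link protein, at 2.05 ± 0.48 (adjusted p = 0.0201). In GFP-negative cells 3 rose and 0 fell, beside 50 and 37 of all genes. They were Fmod at 1.70 ± 0.25, Dcn, decorin, at 1.25 ± 0.22 and Lum at 1.22 ± 0.19 (adjusted p = 0.016, 0.0362 and 0.0216). Dcn and Lum are also on the list of fibroblast and progenitor markers. In unsorted cultures 3 of 14 rose and 0 fell, beside 178 and 163 of all 5647 genes tested there, among them Col11a2 at 4.13 ± 0.49 (adjusted p = 0.000196). The Col11a2 values are of 103616_at (75.8 to 8786 over 18 arrays), and 134879_at on array C read only 690 to 5354. The Hapln4 value is of 135312_at (594 to 5655). Its other probe sets read 539 to 958 (139175_at) and 250 to 2448 (105764_at, above the median on 1 of 12 arrays).

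Of 22 chondrocyte regulators beside Sox9, 13 were tested and 0 called between fractions at either day, with a median of 0.09 at day 17. All 11680 genes gave 46 higher and 175 lower at day 17. With experiment as a block 2 of the 13 were higher and 1 lower at day 17, beside 278 and 495 of all 11680 genes. Between days in GFP-positive cells Pth1r, the parathyroid hormone receptor of growth plate and osteoblast, and Ptch1, the hedgehog receptor, rose by 3.51 ± 0.47 and 2.41 ± 0.40 (limma adjusted p = 0.00136 and 0.00504), and Arid5b, a Sox9 partner, fell by 1.46 ± 0.36 (adjusted p = 0.0335). Of all 11680 genes 282 were higher and 505 lower in that comparison. In GFP-negative cells 0 of 13 were called, beside 50 higher and 37 lower of all genes. There Ptch1 stood at 1.98 ± 0.40 and Pth1r at 1.66 ± 0.47 (limma adjusted p = 0.056 and 0.187). Without Exp106 both were called there (2.49 and 2.22, limma adjusted p = 0.000258 and 0.00207), beside 2.86% of all probe sets. Both also rose in unsorted cultures, by 2.27 ± 0.47 and 2.28 ± 0.52 (adjusted p = 0.0106 and 0.0183). The Ptch1 values are of 104030_at (232 to 3083 over 18 arrays). Its other probe sets spanned less, 104031_at from 372 to 979 on array A and 109521_at from 2304 to 6569 on array B.

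The list of tendon and ligament genes, tissues that also hold Comp, had 14 tested members, of which 1 was higher and 4 lower in GFP-positive cells at day 17, beside 46 and 175 of all 11680 genes. Thbs2, a thrombospondin related to Comp, was lower by -3.02 ± 0.34 and Aspn by -2.72 ± 0.44 (limma adjusted p = 0.00115 and 0.0083), and the median was -0.205. Thbs2 was also the 1 gene of the list called for the difference of the effects (-2.92 ± 0.48, limma adjusted p = 0.0331). Of all 11680 genes 4 were higher and 37 lower in that comparison. The Thbs2 values are of 94930_at, which read 3257 to 38650 over 18 arrays. Its other probe set, 167486_i_at on array C, read only 5186 to 12130 over the 12 sorted samples, a range too narrow for changes of that size. Between days in GFP-positive cells Ptgis was higher at day 17 (2.95 ± 0.27), and Thbs2 (-2.44 ± 0.34) and Tnmd, the tendon relative of Cnmd (-2.72 ± 0.47), were lower (adjusted p = 0.000162, 0.00179 and 0.00291). Of all 11680 genes 282 were higher and 505 lower there. In GFP-negative cells 0 of 14 were called between days, beside 50 higher and 37 lower of all genes. Without Exp106 Tnc and Ptgis were called there (2.24 and 1.12, limma adjusted p = 0.0259 for each), beside 2.86% of all probe sets.

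Of 10 tested genes for cartilage breakdown and its inhibitors, 2 were lower in GFP-positive cells at day 17 and 0 higher: the aggrecanase Adamts5 (-3.10 ± 0.52) and the protease inhibitor Timp3 (-2.03 ± 0.32; limma adjusted p = 0.00997 and 0.0082). Their median was -0.92, and with experiment as a block 5 were lower and 0 higher. Over all 11680 genes 175 were lower and 46 higher, and 495 and 278 with the block. In GFP-positive cells Adamts5 and Timp3 were also lower at day 17 than at day 7 (-3.92 ± 0.52 and -2.93 ± 0.32, adjusted p = 0.0011 and 0.00044), 2 of 3 that fell, beside 505 of all 11680 genes. The 8 tested genes of hyaluronan synthesis, turnover and linkage, the chain that aggrecan binds, gave 0 calls between fractions at either day and 0 between days in either fraction. Their medians lay between -0.29 and 0.03.

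Summed markers of cell types differed between the sorted fractions in some cases and overlapped in others. Summed over the 19 of 20 macrophage markers on array A, the level was 15730 to 41750 in GFP-negative and 7242 to 8226 in GFP-positive cells at day 7, and 81590 to 141300 and 24870 to 98190 at day 17. It was 197900 to 260000 in unsorted cultures of day 17. The highest GFP-positive value, 98190, was that of Exp106, above the 81590 of the GFP-negative cells of that experiment. Comp, too, had its highest GFP-positive reading in Exp106 (3412). In GFP-negative cells Comp and this sum ranked the experiments alike at day 7 and differently at day 17. Of 15 markers tested, 14 had a difference below 0 at day 7 and 15 at day 17, beside 5729 and 5940 of all 11680 genes. Called as lower at day 17 was 1, Coro1a (-2.20 ± 0.42, limma adjusted p = 0.0247), against 3 with experiment as a block, beside 175 and 495 of all genes.

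Fibroblast and progenitor markers (13 of 16 on array A) summed to 112400 to 154800 in GFP-negative and 135000 to 152700 in GFP-positive cells at day 7. At day 17 they summed to 228500 to 315400 and 127600 to 174500, with no overlap, and 5 of 14 tested were lower in GFP-positive cells (9 with experiment as a block, beside 175 and 495 of all 11680 genes), such as Sfrp2 (-3.40 ± 0.43) and Mgp (-2.55 ± 0.26; limma adjusted p = 0.00178 and 0.000677). Skeletal muscle markers (14) summed to 17610 to 25000 in GFP-negative and 10420 to 13140 in GFP-positive cells at day 7, and to 10060 to 17720 and 9086 to 16300 at day 17. Osteoblast markers (8 of 14) summed to 109700 to 247500 in GFP-negative and 126100 to 201500 in GFP-positive cells at day 7, which overlap. At day 17 they summed to 294800 to 324600 and 380000 to 460200. The lowest deposited value is 10, so no marker is at 0. The part of these cells in the differences of Matn4, Matn2, Cnmd and Comp was not tested.

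The 3 members with the widest spread of group means were Matn4, Cnmd and Comp, and for each the 5 genes of 11679 whose log2 values correlated best over the 12 sorted samples were listed. The 12 points come from 6 experiments, 2 fractions each, on shared arrays, so the values are descriptions. For Matn4 they were Mfap2 (r = 0.951), Islr (0.95), Gdf10 (0.946), Fmod (0.927) and Mdk (0.922). For Cnmd they were Klhl2 (0.902), Ifngr2 (0.891), Sgsm3 (0.819), Phactr2 (0.818) and Otud6b (0.814), and for Comp Ccl9 (0.943), Slc29a1 (0.931), Cd93 (0.924), Norad (0.91) and Il1rn (0.891). The 3 lists share no gene. Matn4 correlated with Matn2 at 0.662 (0.889 without Exp106), with Comp at 0.577 and with Cnmd at 0.232, and Comp with Cnmd at 0.295 (0.641 without Exp106). With Sox9 163458_at the values were -0.408 for Matn4, -0.307 for Cnmd and 0.238 for Comp.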

How the data were processed

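Affymetrix MG-U74 arrays A, B and C of 18 RNA samples (44 arrays) were used. The deposited intensity values, 1 per probe set, are whole numbers of at least 10 on a linear scale; no label used here states how the authors summarised and scaled them, and trimmed means (2% off each end) differed between arrays by over 10%. Values were therefore quantile-normalised within an array type over the samples of a fit, and log2(value + 32) was taken, which understates changes of dim probe sets. Probe sets above their array's median on at least 3 arrays were fitted per array type with limma 3.58.1 (R 4.3.3, statmod 1.5.0; lmFit, eBayes with trend), and p-values were adjusted by Benjamini-Hochberg over all types of a comparison. The plan named the 3 types together; 1 joint fit was run as an alternative. The number of arrays limits the precision.

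Of 36701 probe sets 29131 have 1 gene symbol, 724 several and 6846 none in the platform annotation. A gene of a list is given by 1 probe set. The members and lists were chosen with earlier results of these data known. Named genes of the lists are called members with large differences, and the 5 genes most like each of 3 members. Titles give the fractions of 1 experiment the same experiment name, which pairs them; the correlation of their deviations from group means ran from 0.0186 to 0.673. Unsorted Exp106 on arrays B and C entered no fit. The steps were tried on simulated data for the day 17 comparison between fractions only, with noise drawn independently for each sample. Those data held no pairing by experiment, so they do not show how the fits handle it.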

Additional observations from a re-analysis of the deposited data

Results flagged for a closer look

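The difference between the GFP effects at day 17 and day 7 stood out for 3 member probe sets. It was -2.08 for Matn4 96835_at and -1.41 for Matn2 98475_at, both called by limma with experiment as a block (adjusted p = 0.0282 for each) and neither without it with all samples in the fit (0.181 and 0.744). Without Exp106 and without the block Matn4 was called (-2.38, adjusted p = 0.0159) and Matn2 just under the threshold (-1.24, 0.05 after rounding). Sox9 163058_at had -0.87, with GFP-positive cells higher in 3 of 3 experiments at day 7 and lower in 3 of 3 at day 17; that difference was not called (adjusted p = 1).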

How the results depend on the processing

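Of 1143 values recomputed under other settings for 48 results, 1097 kept their side of the threshold, 36 became called, 10 lost the call and no called value changed sign. Uncalled differences did: between days Comp ran from -0.03 to 1.36 in GFP-positive cells and Sox9 163058_at from -0.12 to 1.23 in GFP-negative cells, and Sox9 163058_at between fractions at day 17 from -1.52 to 0.28. At day 17, 1 member probe set was called between fractions, against 2 with values as deposited, with a fixed or random replicate block or without Exp106, 3 without Exp106 with the block, 0 with only the groups compared, and 1 to 2 when a sample was left out. For the difference of the effects 0 became 2 with the replicate block, 1 with a random block, 2 without Exp106 and 2 with both, and 0 to 1 by leaving out a sample. Between days, GFP-positive cells gave 0, 2 without Exp106 and 0 to 1 by leaving out a sample, and GFP-negative cells 1, and 2 without Exp106. For unsorted against sorted at day 17, 0 became 1 as deposited, with either block, and without Exp106 with or without the block, and 0 to 1 by leaving out a sample. Over both days 1 became 3 with either block, 2 without Exp106, 3 with both (Comp in place of Cnmd), and 0 to 2 by leaving out a sample.

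Over all probe sets the calls ran from 24 (only the groups compared) to 1891 (without Exp106, with the block) around 327 at day 17. They ran from 0 to 8 around 0 at day 7, from 2 to 877 around 56 for the difference of the effects, and from 528 to 2764 around 1205 between days in GFP-positive cells. In GFP-negative cells they ran from 26 to 604 around 123, in unsorted cultures from 144 to 930 around 426, for unsorted against sorted at day 17 from 1 to 932 around 119, and over both days from 5 to 1048 around 76. Signal over background limits Acan, Hapln1 and the other probe sets under the array median.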

Other observations

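The unsorted culture of Exp106 was also run on arrays B and C, 1 sample with no replicate there, so deposited values are given. Comp read 7193 unsorted, 5333 in GFP-negative and 3433 in GFP-positive cells, and Cnmd 1486, 1114 and 74. Sox9 163058_at read 5179, 5535 and 5456, Sox9 163458_at 2196, 1860 and 2900, and Sox9 137617_f_at 14493, 13896 and 13041. Matn4 164328_f_at read 801, 1471 and 913, and Hapln1 169604_at 584, 303 and 148.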
